A study of Mus musculus with 16 samples.

Results

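The time change of doxycycline-treated induced hair cell-like cells between day 8 and day 12 was compared with the time change of untreated embryoid bodies over the same days, for every gene with a name of its own on the array. The comparison takes 10 of the 16 arrays of the series, and the test covers all 22180 genes without a choice by their values. The gene lists, however, were chosen with earlier results of these data known. Many of the genes named below were picked after their values were seen. For each gene the change from day 8 to day 12 in the control bodies was subtracted from the change in the induced cells, and the remainder is called the interaction below. It is positive where a gene gained more, or lost less, in the induced cells.

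All samples derive from iGPA-Myo7a:mVenus, a line of mouse embryonic stem cells. Doxycycline (Dox) switches on 3 transcription factors in it together, Gfi1, Pou4f3 and Atoh1, and the fluorescent reporter mVenus is under the control of the Myo7a promoter. The stem cells were aggregated into embryoid bodies (EBs), floating clusters that differentiate into many cell types. For the induced cells, Dox was given from day 4, and mVenus-positive cells (iHCs) were sorted by flow cytometry on day 8, after 4 days of Dox, or on day 12, after 8 days, with 3 arrays for each day. The control EBs of the same line were given no Dox and no retinoic acid and were not sorted, with 2 arrays at day 8 and 2 at day 12. Every group therefore carries the inducible factors and the reporter, the time in culture and the time under Dox run together in the iHCs, and the effect of Dox and that of the sort cannot be told apart. The submitters describe the replicates as biological, from independent RNA preparations. The other 6 arrays of the series are iHCs given Dox with retinoic acid from day 4, with 3 arrays at day 8 and 3 at day 12. They are part of the fit of all 16 arrays. The p-values therefore measure the spread between arrays pooled over all 6 groups.

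Hair cells are the mechanosensory cells of the inner ear. Their apical stereocilia carry a transduction channel opened by tip links, and their base releases transmitter at ribbon synapses; Atoh1 starts their differentiation, and Pou4f3 and Gfi1 maintain it, with Gfi1 acting as a repressor that includes neuronal genes among its targets. EBs left to differentiate pass through waves of primitive blood and beating heart muscle and later form connective tissue and other lineages. In bulk RNA of either kind, a change in the share of a cell type and a change in RNA per cell cannot be told apart.

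The regulatory sequences that come up in the results are printed first. The mature microRNAs below belong to genes whose signal rose in the control EBs and not in the iHCs. Capitals mark the seed, bases 2 to 8 from the 5′ end, which pairs with target messages.
mmu-miR-99a-5p: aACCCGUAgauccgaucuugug
mmu-miR-100-5p: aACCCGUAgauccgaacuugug
mmu-let-7c-5p: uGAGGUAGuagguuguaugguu
mmu-miR-181a-5p: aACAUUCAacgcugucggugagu
mmu-miR-181b-5p: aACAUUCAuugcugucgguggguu
The sequences are RefSeq's on build GRCm38.p6. The copy for Mir99a lies at chr16:77598940-77598961 and that for Mirlet7c-1 at chr16:77599672-77599693, and both are on the plus strand. The copy for Mir100 lies at chr9:41531437-41531458, for Mir181a-2 at chr2:38852741-38852763, for Mir181b-2 at chr2:38853845-38853868 and for Mir181b-1 at chr1:137966650-137966673, all on the plus strand. miR-99a and miR-100 share 1 seed, and miR-181a and miR-181b share another. The array's entries are named for the genes, and whether their probes read the mature molecule or the longer primary transcript is not known here.

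The next sequences are RefSeq's 250 bases before the start of red blood cell genes whose signal fell in the EBs between the days and of Lhfpl5, a stereocilia gene whose signal rose in the iHCs. They are shown because the red cell genes moved together and because Atoh1, a basic helix-loop-helix factor, binds E-box letters. In the red cell genes capitals mark the letters AGATAA or TGATAA (or the same ending in G, AGATAG or TGATAG), which the GATA factors read, and CACCC, which Klf1 and its relatives read. In Lhfpl5 capitals mark the E-box CAGCTG. Only promoters that hold the marked letters are printed. Atp2b2, another stereocilia gene that rose in the iHCs, has no CAGCTG in any of its promoters. Among the red cell genes, Gata1 and Sptb lack the GATA letters. Each sequence runs 5′ to 3′ on the gene's own strand and ends at the base before the start; matches on the opposite strand are capitalised as their complement.
Hbb-y: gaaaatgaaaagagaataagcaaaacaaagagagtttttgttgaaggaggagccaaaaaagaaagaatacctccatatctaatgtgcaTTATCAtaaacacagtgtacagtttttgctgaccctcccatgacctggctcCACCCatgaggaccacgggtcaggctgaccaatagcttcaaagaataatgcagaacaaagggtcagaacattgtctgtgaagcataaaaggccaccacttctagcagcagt
Klf1: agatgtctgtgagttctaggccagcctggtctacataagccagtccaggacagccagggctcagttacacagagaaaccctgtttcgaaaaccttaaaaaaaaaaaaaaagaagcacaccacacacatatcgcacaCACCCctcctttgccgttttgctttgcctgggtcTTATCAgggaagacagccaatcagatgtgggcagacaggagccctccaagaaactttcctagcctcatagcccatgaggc
Rhag: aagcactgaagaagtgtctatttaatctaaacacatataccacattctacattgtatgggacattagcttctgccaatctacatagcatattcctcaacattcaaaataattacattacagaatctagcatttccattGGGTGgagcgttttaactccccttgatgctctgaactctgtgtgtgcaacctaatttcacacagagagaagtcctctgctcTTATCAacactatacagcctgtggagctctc
Ermap: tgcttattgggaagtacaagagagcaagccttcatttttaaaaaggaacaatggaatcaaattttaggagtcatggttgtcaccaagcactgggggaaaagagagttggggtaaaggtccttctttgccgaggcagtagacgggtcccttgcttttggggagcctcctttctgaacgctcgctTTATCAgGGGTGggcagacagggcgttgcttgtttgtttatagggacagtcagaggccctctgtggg
Kel: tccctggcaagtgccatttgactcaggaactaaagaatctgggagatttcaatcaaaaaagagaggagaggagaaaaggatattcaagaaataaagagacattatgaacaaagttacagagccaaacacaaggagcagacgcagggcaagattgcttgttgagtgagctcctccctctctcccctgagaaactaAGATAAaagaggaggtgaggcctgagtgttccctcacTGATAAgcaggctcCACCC
Lhfpl5: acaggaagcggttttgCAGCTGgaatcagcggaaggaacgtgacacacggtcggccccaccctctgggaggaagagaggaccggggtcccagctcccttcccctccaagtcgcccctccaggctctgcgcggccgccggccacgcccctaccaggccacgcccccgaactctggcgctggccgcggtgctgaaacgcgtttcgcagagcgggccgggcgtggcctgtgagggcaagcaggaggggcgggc
They lie on build GRCm38.p6 at chr7:103853208-103853457 (minus strand) for Hbb-y, chr8:84901732-84901981 (plus) for Klf1, chr17:40810899-40811148 (plus) for Rhag, chr4:119189996-119190245 (minus) for Ermap, chr6:41704326-41704575 (minus) for Kel and chr17:28575469-28575718 (plus) for Lhfpl5.

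Between day 8 and day 12, in the iHCs, genes of the hair bundle rose, and genes of cell division and some genes of neurons and axon guidance fell. In the EBs genes of red blood cells, heart muscle and cholesterol synthesis fell, and collagens, albumin and several microRNA genes rose. By limma's moderated test with Benjamini-Hochberg adjustment over all genes, called below where the adjusted p was under 0.05, the interaction was called for 630 genes, 2.84% of those tested. Of these, 229 were positive (1.03%) and 401 negative (1.81%), and 383 differed by 2-fold or more (1.73%). The median interaction over all 22180 genes was 0.0027 on the log2 scale, with a median standard error of 0.18.

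The called count depended on single arrays and on the treatment of the replicate numbers. It was 266 without the second day 8 EB array, 291 without the first and 396 without the second day 12 EB array, 414 without the second day 8 iHC array and 1068 without the third day 12 iHC array. In the iHCs arrays of the same replicate number varied together, and with the replicate number as a block 1430 genes were called (6.45%), among them all 630. Of the 1430, 596 were positive (2.69%) and 834 negative (3.76%). The block also ties EB and iHC arrays of the same number, which the labels do not state to share a batch. Deviations from group means of same-numbered EB and Dox iHC arrays correlated at 0.0772 to 0.143. With a block within each kind of culture 1461 genes were called. The simple time change was called for 1785 genes in the iHCs (8.05%), of which 751 rose (3.39%) and 1034 fell (4.66%). In the EBs it was called for 831 (3.75%), of which 516 rose (2.33%) and 315 fell (1.42%). These shares and those of the interaction are the background for every list count below.

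The EB side of the subtraction was the larger for most called genes. Among the 229 positive genes the EB change was larger in size for 147 and the iHC change for 82, with a median change of 0.33 in the iHCs and -0.64 in the EBs. Among the 401 negative genes the EB change was larger for 289 and the iHC change for 112, with medians of -0.27 in the iHCs and 0.78 in the EBs. A change of 2-fold or more, itself called or not, was met in the iHCs alone by 20 positive and 40 negative genes. In the EBs alone it was met by 67 and 143. Over all genes, 1.25% were called and 2-fold in the iHCs and 1.38% in the EBs. These shares need a call and allow a 2-fold change on the other side, so they are no background for the counts. The negative genes Nefl, Plcxd3 and Ebf3 changed by 2-fold or more on both sides. These splits follow from the arithmetic of the interaction and are given without a test. For 334 of the 401 negative genes the iHCs and EBs lay further apart at day 12 than at day 8, and for 129 of the 229 positive genes.

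**Figure D1:**
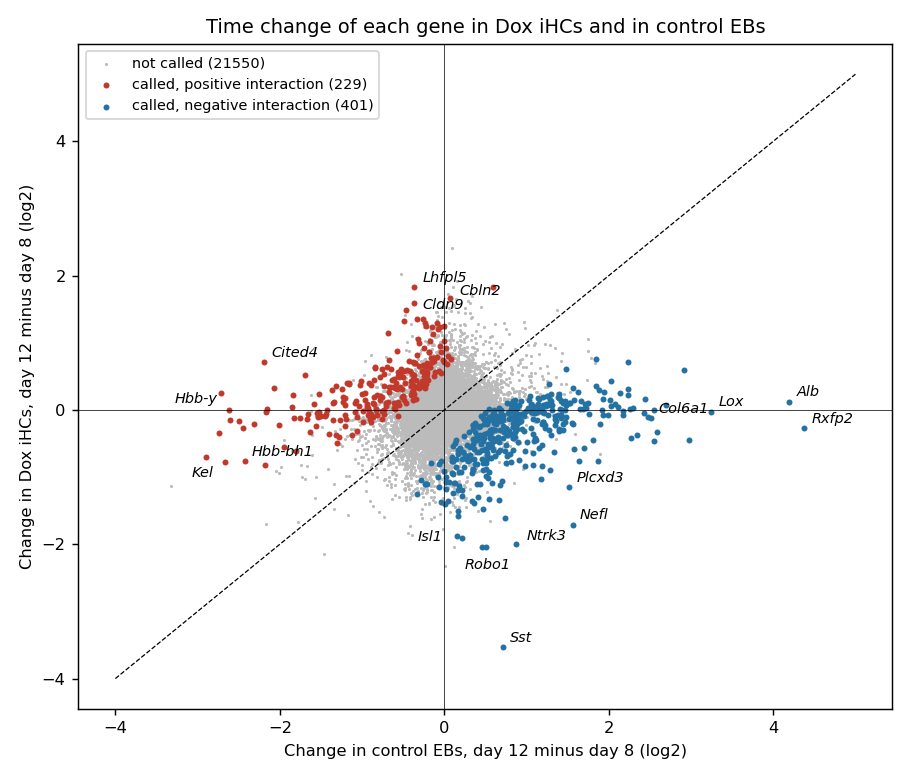
Each point is 1 of 22180 genes, with its log2 change from day 8 to day 12 in control EBs (2 arrays a day) on the x axis and in Dox iHCs (3 arrays a day) on the y axis. Red points are the 229 genes with a called positive interaction and blue points the 401 with a called negative one; on the dashed line both changes are equal, and the EB change is the larger in size for 147 of the red and 289 of the blue points.

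The 3 induced factors and the reporter's gene were checked first. Gfi1 stood at 11.11, 11.06 and 10.98 on the log2 scale in the day 8 iHCs and at 11.25, 11.12 and 10.87 in the day 12 iHCs, against 6.72 and 6.47 and then 6.59 and 6.58 in the EBs. Pou4f3 stood at 11.40, 11.27 and 11.27 and then 11.49, 11.47 and 11.18 in the iHCs, against 4.66 to 5.82 in the EBs. Atoh1 stood at 10.99, 10.88 and 10.91 and then 11.36, 11.34 and 10.98 in the iHCs, against 4.71 to 5.09 in the EBs. For all 3 factors every iHC array was above every EB array and the iHC days overlapped. The interaction was 0.04 ± 0.16 for Gfi1 (SE; adjusted p = 0.955), 0.56 ± 0.27 for Pou4f3 (0.361) and 0.17 ± 0.20 for Atoh1 (0.808), so none of the 3 factors was called. The interactions of Gfi1 and Atoh1 changed sign when single arrays were left out. Myo7a, the hair cell myosin whose promoter drives the sorted reporter, was at 8.48, 7.63 and 7.76 in the day 8 iHCs and at 8.51, 8.10 and 8.43 in the day 12 iHCs, against 5.32 to 6.11 in the EBs. Its interaction was 0.86 ± 0.39 (adjusted p = 0.329). The sort was made on this reporter on both days, and the probes of Gfi1, Pou4f3 and Atoh1 may read transgene and endogenous transcript alike.

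Stereocilia and mechanotransduction genes rose in the iHCs. Of the 35 measured (40 in the list), 17 rose and 0 fell in the iHCs, with a median change of 0.64, and in the EBs 1 rose, with a median change of 0.0081. The median interaction was 0.68, against 0.0027 over all genes, and 30 of 35 were above 0. Called in the interaction were 2, Lhfpl5 and Atp2b2, and with the replicate block 14 were called positive and 1, Eps8, negative; 2 of 35 and 14 of 35 stand beside background shares of 1.03% and 2.69%. The count of 2 was 0 without the first day 12 EB array, 1 without the second day 12 or the first day 8 EB array, 7 without the third day 12 iHC array and 5 without the first day 8 iHC array. The iHC count of 17 was 5 and 8 without the first and the second day 12 iHC array, and 6 without either the second or the third day 8 iHC array.

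Lhfpl5, a subunit of the transduction channel complex at the foot of the tip link, showed the largest interaction of these genes. It was at 6.60, 5.65 and 5.75 in the day 8 iHCs and at 8.38, 7.64 and 7.46 in the day 12 iHCs, against 4.47 and 3.96 and then 3.82 and 3.87 in the EBs. Every day 12 iHC array was above every day 8 iHC array, and the EB arrays lay below all of them. Lhfpl5 rose by 1.83 ± 0.29 in the iHCs (adjusted p = 0.00295), the EB change was -0.37 ± 0.36 (0.748), and the interaction was 2.20 ± 0.46 (0.0183). It was not called without the first day 8 EB array or either day 12 EB array, with adjusted p up to 0.0826. Atp2b2, the calcium pump of the hair bundle, went from 7.70, 7.21 and 7.16 to 8.84, 8.66 and 8.25 in the iHCs, while the 4 EB arrays were at 4.87 to 5.12. The iHC days did not overlap, and the interaction was 1.28 ± 0.25 (adjusted p = 0.011; 0.0656 without the first day 12 EB array).

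Other genes of the bundle changed within the iHCs without a called interaction. Cdh23, a cadherin of the tip link, was at 8.74, 8.04 and 8.22 and then 9.09, 9.02 and 8.87 in the iHCs and at 4.06 to 4.44 in the EBs. Tmc2, a pore subunit of the transduction channel that precedes Tmc1 in developing hair cells, was at 6.45, 6.15 and 5.46 and then 7.78, 7.31 and 6.46 in the iHCs and at 4.56 to 4.97 in the EBs. Tmc1, the mature subunit, was at 4.31, 4.15 and 4.15 in the day 8 iHCs, close to the 4.06 to 4.20 of the EBs, and at 5.17, 4.86 and 4.50 in the day 12 iHCs. The iHC days did not overlap for Cdh23, Tmc1 and Tmc2, although the lowest day 12 array of Tmc2 only just cleared the highest day 8 array. All 3 rose in the iHCs (limma, adjusted p = 0.0324, 0.0271 and 0.0244), and their interactions of 0.87, 0.68 and 0.96 were called with the replicate block (0.0288, 0.0312 and 0.0348) and not without it (0.119, 0.205 and 0.362). Loxhd1, a stereocilia membrane protein, rose in the iHCs by 1.53 ± 0.38 (adjusted p = 0.0235), and its interaction of 1.09 was called neither without nor with the replicate block (0.458 and 0.0845). Pcdh15, the partner of Cdh23 in the tip link, had an interaction of -0.29 (adjusted p = 0.527).

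The list of hair cell regulators and markers moved less. Of 29 measured (30 in the list), 5 rose and 0 fell in the iHCs, where 3.39% of all genes rose. The median interaction was 0.15 and 1, Rbm24, was called, beside a background of 1.03% positive. With the block 5 were called positive and Rorb negative, beside 2.69% and 3.76%. The 5 iHC rises were 0 without the first day 12 or the third day 8 iHC array, 1 without the second day 12 array and 2 without the second day 8 array. Rbm24, an RNA-binding splicing factor of hair cells and of heart, owed its interaction of 1.66 ± 0.38 (adjusted p = 0.0289) to the EBs, where it went from 5.47 and 6.55 to 4.49 and 4.81; in the iHCs it was at 8.95 to 9.86 on all 6 arrays. The call of Rbm24 was lost in 8 of 18 alternatives, among them without any 1 of 7 arrays. These were both day 12 EB arrays, the second day 8 EB array, the first and second day 12 iHC arrays and the second and the third day 8 iHC arrays. Chrna10, a subunit of the efferent acetylcholine receptor of hair cells, was at 7.14, 6.41 and 5.59 in the day 8 iHCs and at 9.36, 8.46 and 7.38 in the day 12 iHCs, against 3.96 to 4.63 in the EBs. Day 12 was above day 8 within each replicate number, the days did not overlap, and the arrays of a day spread widely. Chrna10 rose by 2.02 ± 0.52 in the iHCs (adjusted p = 0.0301), and its interaction of 2.54 ± 0.83 was called with the replicate block (0.000512) and not without it (0.133). Grxcr2, a bundle protein, had an interaction of 1.52 ± 1.09, called with the block (0.0388) and not without it (0.607). Of 12 Merkel cell markers, all measured, 4 rose and 1 fell in the iHCs, with a median interaction of 0.41. Krt20 was called positive, at 1.83 ± 0.36 (limma, adjusted p = 0.0122), and lost its call in 2 of 18 alternatives. Isl1, also in that list, was called negative.

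Synaptic and membrane genes that rose in the iHCs included synaptic organisers and calcium sensors. Of 32 synapse and exocytosis genes measured (34 in the list), 7 rose and 1 (Ctbp2) fell in the iHCs, the median interaction was 0.44, and 3 were called, Slc18a2, Syt7 and Pclo; with the block 5 were called positive. The interaction count of 3 was 5 without the third day 12 or the first day 8 iHC array. The count of 7 was 14 and 12 without those arrays, and 3 without any 1 of the other iHC arrays. Syt7, a high-affinity calcium sensor of exocytosis, went from 7.96, 7.84 and 7.54 to 9.40, 9.09 and 8.62 in the iHCs, and was at 4.67 to 5.20 in the EBs. The days did not overlap, and the interaction of Syt7 was 1.48 ± 0.29 (adjusted p = 0.0124; 0.0674 without the second day 12 EB array). Pclo, a scaffold of the active zone, rose by 0.93 ± 0.15 in the iHCs (adjusted p = 0.00327) and had an interaction of 1.18 ± 0.24 (0.0155). The call of Pclo was lost in 3 of 18 alternatives, among them without the first day 12 or the second day 8 EB array. Slc18a2, the vesicular monoamine transporter, is treated with the genes that fell in the EBs.

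Most genes in the next sentences were picked after their values were seen, for large iHC changes among called genes whose iHC change exceeded the EB change. Cldn9, a tight junction protein of the inner ear, went from 7.25, 6.59 and 6.49 to 8.71, 8.28 and 8.11 in the iHCs and was at 5.25 to 5.97 in the EBs. Cbln2, a secreted synapse organiser, went from 6.78, 6.55 and 6.68 to 8.27, 8.61 and 8.12 in the iHCs and was at 5.25 to 5.47 in the EBs. Neither gene's iHC days overlapped. The interaction was 1.96 ± 0.35 for Cldn9 (adjusted p = 0.00705; 0.0503 without the first day 12 EB array and 0.0514 without the second day 8 EB array) and 1.59 ± 0.21 for Cbln2 (0.000787), which kept its call in all 18 alternatives. Cbln1, a relative of Cbln2, was at 7.31, 7.28 and 7.23 and then 9.12, 8.64 and 8.03 in the iHCs, and its interaction of 1.82 ± 0.37 (adjusted p = 0.0154) was lost without the first day 12 or the second day 8 EB array (up to 0.0946). Kif5c, a neuronal kinesin motor, had an interaction of 1.68 ± 0.28 (adjusted p = 0.00431). Rap1gap, which switches off the small GTPase Rap1, went from 5.83, 5.68 and 5.81 to 7.60, 7.64 and 7.57 in the iHCs, and from 5.35 and 5.17 to 5.73 and 5.98 in the EBs. Its interaction was 1.24 ± 0.24 (adjusted p = 0.0112; 0.074 without the first day 12 EB array).

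Among 35 voltage-gated and potassium channel genes measured (40 in the list), 5 rose in the iHCs, Cacna1d, Kcnh2, Kcnh7, Cacna2d1 and Scn3b, and 4 rose in the EBs, Cacna1g, Kcnb2, Kcnd2 and Cacna1h. In the interaction 2 were called positive and 3 negative, beside 1.03% and 1.81% of all genes, or 4 and 3 with the block. The median was -0.08, with a sign that changed in some alternatives. The 2 positive calls were 4 without the third day 12 iHC array and 1 without either day 12 EB array, the second day 8 EB array or any 1 of the first and second day 12 and the second and the third day 8 iHC arrays. The 3 negative calls and the 4 EB rises were each 1 without the first day 12 or the second day 8 EB array. The 5 iHC rises were 10 without the third day 12 iHC array, 2 without the first day 12 or the third day 8 iHC array and 3 without the second array of either day. Kcnh2, a delayed rectifier potassium channel, was at 6.96, 6.72 and 6.91 and then 7.70, 7.58 and 7.70 in the iHCs, without overlap, and its interaction was 0.88 ± 0.14 (adjusted p = 0.00253). Cacna1g, a T-type calcium channel, went from 5.22 and 4.87 to 6.90 and 6.32 in the EBs and lay between 4.87 and 5.47 in all iHC arrays, for an interaction of -1.78 ± 0.25 (adjusted p = 0.00127). Both kept their calls in all 18 alternatives.

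The promoter of Lhfpl5 holds 1 match to the E-box CAGCTG, with its first base at -234. The promoters of Atp2b2, the other called stereocilia gene, hold none. Of 15 genes with the largest called rises led by the iHCs, 11 have a RefSeq promoter and 4 of these hold CAGCTG on either strand in at least 1 of their promoters. Over all of RefSeq's entries 4271 of 32851 single promoters hold it, which is another unit, since Rap1gap and Atp2b2 have several promoters each. The letters are a description and do not show a binding site.

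Some neuronal genes fell in the iHCs. Of 37 measured (40 in the list), 10 fell and 2 rose in the iHCs, while 5 rose in the EBs. The list's median change was -0.13 in the iHCs and 0.21 in the EBs, so the EB median was the larger in size. The interaction was called negative for 7 and positive for 0, with a median of -0.30, and negative for 9 with the replicate block, beside backgrounds of 1.81% and 3.76%. The median gap between iHCs and EBs over these genes went from 1.30 at day 8 to 0.52 at day 12. That shift between 2 medians is larger in size than the median interaction of the single genes. The count of 7 was 2 without the first day 12 or the second day 8 EB array, 3 without the second day 12 iHC array, and 4 without the second day 12 EB array, the first day 12 iHC array or the second day 8 iHC array. The 5 EB rises were 1 or 2 without any 1 EB array.

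Sst, the neuropeptide somatostatin, was at 10.58, 11.06 and 11.21 in the day 8 iHCs and at 6.16, 7.14 and 8.96 in the day 12 iHCs, against 5.47 and 5.03 and then 6.20 and 5.73 in the EBs. The iHC days did not overlap, and the day 12 arrays differed widely among themselves. Sst fell by 3.53 ± 0.57 on the log2 scale in the iHCs (adjusted p = 0.00317), and its interaction was -4.24 ± 0.91 (0.0199). It was lost without either day 12 EB array, the second day 8 EB array or the second day 12 iHC array, with adjusted p up to 0.102.

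Nefl, the light neurofilament subunit of axons, moved in opposite directions on the 2 sides. It was at 10.21, 10.02 and 8.92 and then 7.60, 8.05 and 8.37 in the iHCs, and at 4.28 and 4.78 and then 6.15 and 6.04 in the EBs. On neither side did the days overlap. The change was -1.71 ± 0.31 in the iHCs (adjusted p = 0.00463) and 1.56 ± 0.38 in the EBs (0.0302), and the interaction of -3.27 ± 0.48 (0.00187) kept its call in all 18 alternatives. Ntrk3, the receptor of neurotrophin-3, was at 6.93, 7.48 and 7.04 and then 4.89, 4.96 and 5.61 in the iHCs, while the EB arrays stood at 5.00 to 6.36. Its interaction was -2.86 ± 0.39 (adjusted p = 0.00105). Isl1, a homeodomain factor of sensory and motor neurons that is also found in Merkel cells and the developing ear, was at 9.72, 10.24 and 9.93 and then 7.55, 8.24 and 8.47 in the iHCs, against 7.37 to 7.93 in the EBs. The interaction of Isl1 of -2.03 ± 0.48 (adjusted p = 0.0362) was lost in 8 of 18 alternatives, by leaving out any 1 EB array, the first or the second day 12 iHC array or the second or the third day 8 iHC array (up to 0.17). Gal, the neuropeptide galanin, fell by 1.35 in the iHCs (adjusted p = 0.00349), and its interaction of -1.21 was called with the block (0.0166) and not without it (0.0924).

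Axon guidance genes showed a similar split. Of 34 measured (35 in the list), 8 fell and 1 (Unc5a) rose in the iHCs, 5 rose in the EBs, and the interaction was called negative for 8 and positive for 0, with a median of -0.63. With the block 12 were called negative and 1 positive. The count of 8 was 3 without either day 12 EB array or the second day 8 EB array, and the 8 iHC falls were 5 without the second day 8 iHC array. Robo1, a receptor of the Slit repellents, was at 7.05, 7.62 and 7.78 and then 4.79, 5.57 and 5.94 in the iHCs, and at 7.87 and 7.96 and then 8.48 and 8.36 in the EBs. The iHC arrays of day 12 lay below all others. Its interaction of -2.55 ± 0.53 (adjusted p = 0.0169) was lost without any 1 of the 4 EB arrays (up to 0.0813). Epha3, a receptor of the ephrins, took its interaction of -2.71 ± 0.31 (adjusted p = 0.000236) mainly from the EBs, where it went from 6.81 and 6.12 to 8.96 and 8.65; in the iHCs it was at 5.27, 4.90 and 4.82 and then 4.65, 4.53 and 4.71. Epha5, a related receptor, fell by 0.77 in the iHCs (adjusted p = 0.0042) and rose by 0.81 in the EBs (0.0115), and its interaction of -1.58 ± 0.21 (0.00095) kept its call in all 18 alternatives.

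**Figure D2:**
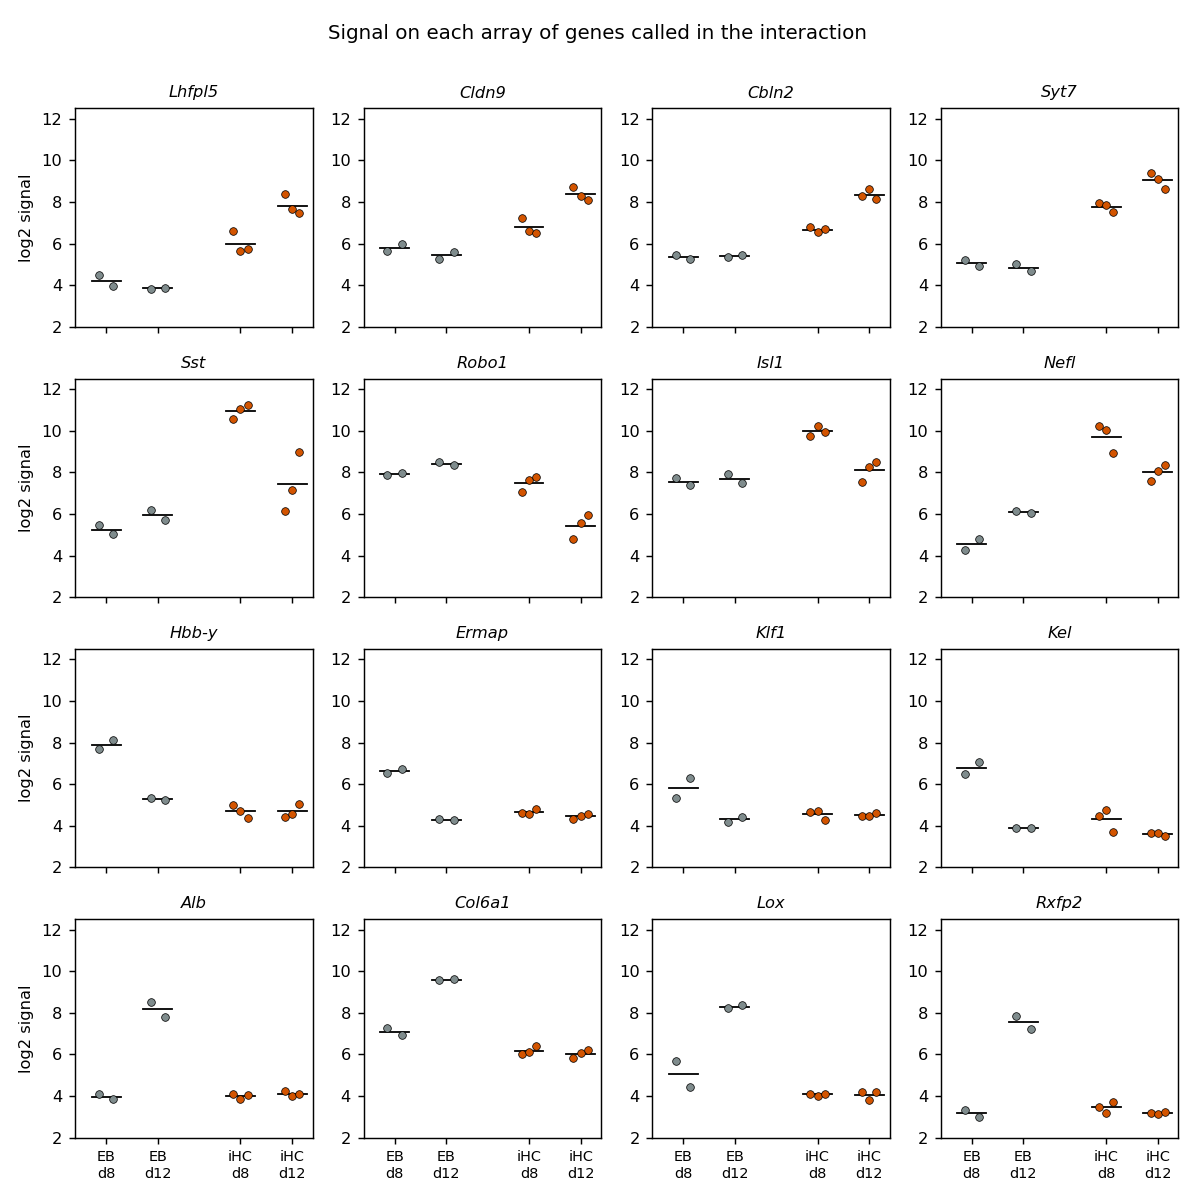
Log2 expression of 16 genes on each array, with control EBs in grey (2 arrays a day) and Dox iHCs in orange (3 arrays a day) at day 8 and day 12; bars are group means. In the top row the iHC arrays of day 12 lie above those of day 8, in the next row below them, and in the lower rows the EB arrays carry the change, as for Alb, which went from 4.09 and 3.85 to 8.52 and 7.81 in the EBs.

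Genes of cell division fell in the iHCs. Of 29 mitosis genes measured (30 in the list), 26 fell and 0 rose in the iHCs, with a median change of -1.03, and 0 changed in the EBs, with a median of -0.21. All 29 interactions were below 0, with a median of -0.82, but 1, Top2a, was called; with the block 11 were called. The call count was 0 without any 1 EB array or the second day 8 iHC array, 7 without the third day 12 iHC array and 14 without the first day 8 iHC array. The 26 iHC falls were 14 without the first day 12 or the second day 8 iHC array and 13 without the third day 8 iHC array. Of 28 G1/S and replication genes (30 in the list), 13 fell in the iHCs and 0 were called in the interaction by limma, with 6 at an unadjusted p under 0.05 and 3 called with the block. The 13 falls were 5 without the first day 12 iHC array, 7 and 6 without the second and the third day 8 iHC arrays and 21 without the first.

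Top2a, the topoisomerase that untangles DNA before division, was at 6.73, 7.22 and 7.55 and then 5.55, 5.92 and 5.91 in the iHCs, and at 8.82 and 9.04 and then 8.95 and 8.85 in the EBs. The EB arrays stood above all iHC arrays, and the iHC days did not overlap. Its interaction was -1.34 ± 0.29 (adjusted p = 0.0203). The call was lost in 6 of 18 alternatives, among them without any 1 EB array or the second day 8 iHC array. Mki67, a marker of cycling cells, was at 6.82, 7.37 and 7.98 and then 6.13, 6.36 and 6.37 in the iHCs and at 9.36 to 9.58 in the EBs. Cdk1, the kinase that drives entry into mitosis, was at 6.42, 7.09 and 7.53 and then 5.42, 5.71 and 5.80 in the iHCs and at 8.93 to 9.19 in the EBs. Mki67 and Cdk1 both fell in the iHCs (adjusted p = 0.00811 and 0.00272), and their interactions of -1.04 and -1.26 were called with the block (0.0337 and 0.0235) and not without it (0.15 and 0.0656). Cdkn1c, an inhibitor of cyclin-dependent kinases, also fell, by 1.33 in the iHCs (adjusted p = 0.00388), with an interaction of -1.88 ± 0.36 (0.0112; 0.0692 without the first day 12 EB array).

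Of 25 Notch pathway genes, all measured, 6 fell in the iHCs, Notch1, Notch2, Hes1, Hes5, Hey1 and Heyl, and 0 changed in the EBs. Of all genes, 4.66% fell in the iHCs and 1.81% were called negative in the interaction. Notch2, a receptor, was the only member called in the interaction, at -1.54 (adjusted p = 0.0474), and with the block 5 were called negative. The call of Notch2 was lost in 9 of 18 alternatives, and the list's count was 0 without either day 12 EB array, the first day 8 EB array, the first or the second day 12 iHC array or the second day 8 iHC array. It was 2 without the third day 12 or the first day 8 iHC array. The 6 iHC falls were 1 without the first day 12 or the second day 8 iHC array and 3 without the third day 8 iHC array. Hes5, a repressor switched on by Notch, was at 6.68, 7.40 and 6.66 and then 5.90, 6.13 and 5.97 in the iHCs and at 4.92 to 5.35 in the EBs, with an interaction of -0.98 (adjusted p = 0.141; 0.0413 with the block).

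**Figure D3:**
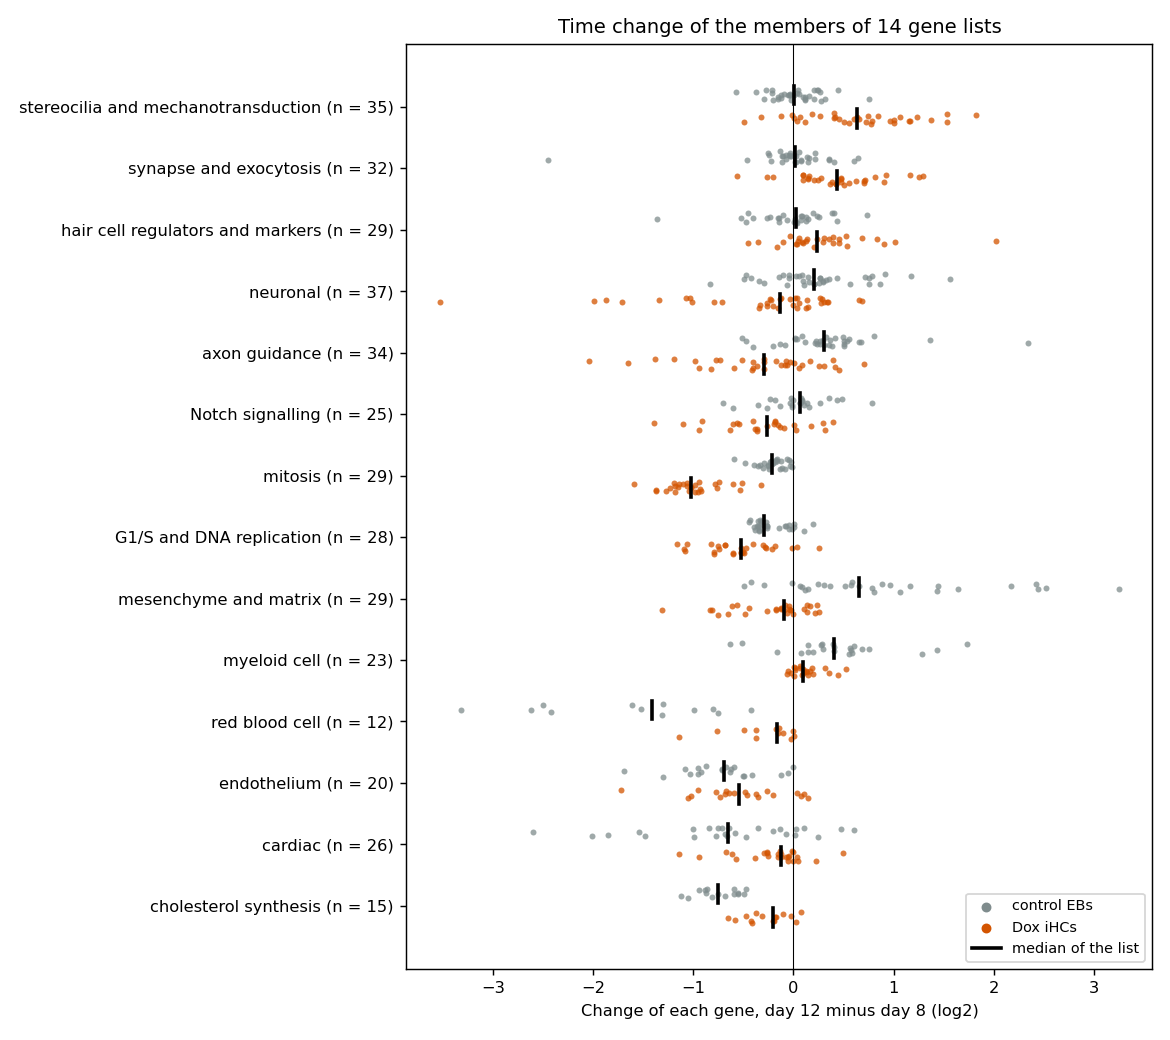
Log2 change from day 8 to day 12 of every measured member of 14 gene lists, in control EBs (grey) and in Dox iHCs (orange); each point is 1 gene and each bar the list's median. The stereocilia list has a median of 0.64 in the iHCs and 0.0081 in the EBs, the mitosis list -1.03 and -0.21, and the red blood cell list -0.16 and -1.42.

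Red blood cell genes fell in the EBs. Of 12 measured (15 in the list), 11 fell in the EBs with a median change of -1.42, and in the iHCs 2 fell, Gata1 and Hbb-bh1, with a median of -0.16. All 12 interactions were above 0, with a median of 1.08. Of these 6 were called, and 10 with the block, beside backgrounds of 1.03% and 2.69%. The count of 6 was 3 without the first day 12 or the second day 8 EB array. The 2 iHC falls were 1 without the first day 12 or the second day 8 iHC array and 4 without the third day 8 iHC array. The mean level of the list was 6.75 to 7.22 in the day 8 EBs, 5.34 to 5.36 in the day 12 EBs, 5.01 to 5.48 in the day 8 iHCs and 4.98 to 5.02 in the day 12 iHCs.

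Hbb-y, the embryonic beta globin, was at 7.67 and 8.14 and then 5.34 and 5.22 in the EBs, and at 4.99, 4.71 and 4.38 and then 4.44, 4.57 and 5.07 in the iHCs. The day 8 EB arrays stood above all others. Hbb-y fell by 2.62 in the EBs (adjusted p = 6.3e-06), and its interaction was 2.62 ± 0.28 (0.000163). Rhag, a membrane gas channel of red cells, went from 5.58 and 6.80 to 3.57 and 3.81 in the EBs and was at 3.36 to 3.88 in the iHCs, with an interaction of 2.34 ± 0.35 (adjusted p = 0.00206). Hbb-bh1, another embryonic globin, had an interaction of 1.66 ± 0.25 (adjusted p = 0.00195), and these 3 kept their calls in all 18 alternatives. Klf1, the factor that drives globin expression, went from 5.35 and 6.32 to 4.20 and 4.44 in the EBs, with an interaction of 1.49 ± 0.30 (adjusted p = 0.0151). The call of Klf1 was lost in 3 of 18 alternatives, among them without the first day 12 or the second day 8 EB array. Slc4a1, the anion exchanger band 3, fell by 3.32 in the EBs (adjusted p = 0.000363) and had an interaction of 2.18 ± 0.56, called with the block (0.013) and not without it (0.0524).

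Further blood genes were among the largest positive interactions. Ermap, a blood group protein, went from 6.53 and 6.71 to 4.34 and 4.26 in the EBs and lay between 4.34 and 4.82 in the iHCs, so that the EBs of day 8 alone stood apart. Its interaction was 2.10 ± 0.16 (adjusted p = 6.37e-06). Kel, the Kell blood group protein, had an interaction of 2.19 ± 0.43 (adjusted p = 0.0117), lost without the first day 12 or the second day 8 EB array (up to 0.0816). Gfi1b, the blood relative of the induced Gfi1, had an interaction of 2.06 ± 0.25 (adjusted p = 0.00044), from 6.98 and 7.63 to 5.34 and 5.59 in the EBs and 5.17 to 5.53 in the iHCs. Grap2, an adaptor of blood cells, had the largest positive interaction of the genes named by rule, 2.97 ± 0.29 (adjusted p = 6.41e-05). Grap2 went from 7.67 and 7.86 to 5.05 and 5.06 in the EBs and lay between 6.78 and 7.75 in the iHCs, so the iHCs and the EBs were close at day 8 and apart at day 12. Slc18a2, the monoamine transporter, is from the synapse list and is not counted with the blood genes. It was at 8.10 and 8.01 and then 5.59 and 5.62 in the EBs and at 9.65 to 10.10 in the iHCs. Its interaction was 2.18 ± 0.16 (adjusted p = 6.37e-06).

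Of 10 of these blood genes (Gata1, Tal1, Klf1, Rhag, Hbb-y, Hbb-bh1, Sptb, Kel, Ermap and Gfi1b), 9 have a RefSeq promoter. They are the called members of the red cell list and, picked by hand from the largest positive interactions, Sptb, Kel, Ermap and Gfi1b. Grap2 and Slc4a1 were not among them. The GATA letters stand in 7 of the 9 and CACCC in 9, and 7 hold both, beside 26.5%, 52.0% and 11.8% of the 32851 single promoters; Tal1 counts with more than 1 promoter. Of the 11 genes led by iHC rises, 3 hold the GATA letters, 10 hold CACCC and 2 hold both, so CACCC stood in most genes of both sets. In the printed promoters the first base of the GATA letters lies at -162 in Hbb-y, -80 in Klf1, -31 in Rhag, -67 in Ermap, and -56 and -19 in Kel. A match is a description of the letters and not of binding. The counts are by gene in a set picked by hand and the shares by single promoter, so enrichment was not tested.

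Heart muscle genes fell in the EBs too. Of 26 measured, all in the list, 6 fell in the EBs with a list median of -0.65, 1 (Mef2c) fell in the iHCs, and 2 were called positive in the interaction, Myh7 and Myl7, or 3 with the block. The EB count was 12 without the first day 8 EB array, 3 without the first day 12 and 2 without the second day 8 EB array. The interaction count was 6 without the first day 8 EB array, and 1 without any 1 of the other EB arrays, the second day 12 iHC array or the first or the second day 8 iHC array. Myl7, the atrial myosin light chain, was at 8.60 and 9.87 and then 6.59 and 6.67 in the EBs, and its interaction of 2.45 ± 0.60 (adjusted p = 0.0418) rose to an adjusted p of up to 0.219 when single arrays were left out. Myh7, the slow myosin heavy chain, fell by 1.55 in the EBs (adjusted p = 0.000112), and its interaction (adjusted p = 0.00241) kept its call in all 18 alternatives.

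Cholesterol synthesis genes fell in the EBs, 12 of 15 measured (20 in the list), with a median change of -0.75, and 2 fell in the iHCs, Hmgcs1 and Fdps. The interaction was above 0 for all 15, with a median of 0.49, and 4 were called, with and without the block, Dhcr7, Msmo1, Lss and Sc5d, which make late steps of the pathway, with values of 0.63 to 0.76. The count of 4 was 0 without either day 12 EB array, the second day 8 EB array, the first or the second day 12 iHC array or the third day 8 iHC array, and 2 without the first day 8 EB or the first day 8 iHC array. The 12 EB falls were 7 and 5 without the first and second day 12 EB array and 4 without the second day 8 EB array. Endothelial genes fell on both sides: 8 of 20 fell in the EBs and 6 in the iHCs, and 1, Stab2, was called in the interaction, at 1.19 (adjusted p = 0.00702). With the block 3 endothelial genes were called positive and 1 negative, and without the second day 12 EB, the third day 12 iHC or the first day 8 iHC array 2 were called positive. Without single EB arrays the 8 EB falls were 2 to 4. The 6 iHC falls were 2 without the first day 12 iHC array, 1 without the second and 3 without the third day 8 iHC array.

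Connective tissue genes rose in the EBs. Of 29 mesenchyme and matrix genes measured (30 in the list), 13 rose in the EBs with a median change of 0.66, and in the iHCs 3 fell, Fn1, Vim and Prrx2, with a median of -0.10. The interaction was below 0 for 27, with a median of -0.92; 10 were called negative and 0 positive, and 15 with the block. The 13 EB rises were 7 without the second day 8 EB array. The 3 iHC falls were 0 and 1 without the second and the third day 8 iHC arrays, 6 without the first, and 7 without the third day 12 iHC array. The list's mean level was 7.46 to 7.78 and then 8.49 to 8.50 in the EBs and 5.48 to 5.83 and then 5.23 to 5.71 in the iHCs.

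Col6a1, a chain of collagen VI, was at 7.25 and 6.92 and then 9.56 and 9.64 in the EBs, and at 5.85 to 6.40 in the iHCs. The EB days stood apart and the iHC days overlapped. Its interaction was -2.64 ± 0.21 (adjusted p = 8.57e-06), beside -2.48 for Col6a2 and -2.24 for Col6a3, the other chains. Lox, the enzyme that cross-links collagen, went from 5.69 and 4.43 to 8.25 and 8.36 in the EBs and lay between 3.79 and 4.20 in the iHCs, with an interaction of -3.27 ± 0.36 (adjusted p = 0.000199).

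Genes outside this list rose more. Alb, serum albumin of liver and yolk sac, went from 4.09 and 3.85 to 8.52 and 7.81 in the EBs and was at 3.84 to 4.26 in the iHCs, with an interaction of -4.07 ± 0.23 (adjusted p = 5.25e-07). Rxfp2, the receptor of the hormone Insl3, had the largest negative interaction of the genes named by rule, -4.65 ± 0.34 (adjusted p = 6.37e-06). It went from 3.35 and 2.99 to 7.86 and 7.24 in the EBs and was at 3.16 to 3.73 in the iHCs. For both the day 12 EB arrays stood above all the others. Of the 28 endoderm genes measured (30 in the list), Fga was the other member called, and its group means were all under log2 5. The list's median interaction was -0.18, with a sign that changed in some alternatives. With the block 5 endoderm genes were called negative, as without the third day 12 iHC array, and 1 without the second day 12 or either day 8 EB array, or the second day 12 or the third day 8 iHC array. Slitrk6, a synaptic adhesion protein of the inner ear, was at 5.29 and 4.72 and then 7.69 and 7.49 in the EBs and at 9.50 to 10.15 in the iHCs, and its interaction was -2.91 ± 0.27 (adjusted p = 5.34e-05). Its iHC level was high on both days and the EB level approached it.

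Of 23 myeloid genes measured, 5 rose in the EBs, Adgre1, C1qb, C1qc, Csf1r and Lyz2, and 1 (Mpo) fell, while 0 changed in the iHCs. In the interaction 2 were called negative, Adgre1 and Lyz2, and 1 positive, Mpo, or 4 and 1 with the block. The 2 were 5 without the first day 12 EB array and 1 without either the second day 12 or the second day 8 EB array or the second day 12 iHC array. The call of Mpo was lost in 6 of the 17 alternatives that tested it. Among them were those without the first day 12 or the second day 8 EB array or the second or the third day 8 iHC array. Lyz2, the lysozyme of macrophages, went from 3.71 and 3.63 to 4.87 and 5.04 in the EBs and lay at 3.38 to 4.01 in the iHCs, with an interaction of -1.19 (adjusted p = 0.00821). Every group mean of Lyz2 and of Mpo was under log2 5, and the alternative without dim genes left both out. The array medians were 4.67 to 4.82. The 5 EB rises were 8 without the first day 12 EB array and 2 without the second day 12 or the second day 8 EB array. Ifi27, an interferon-stimulated gene, had an interaction of -2.27 ± 0.20 (adjusted p = 3e-05), and was the only one called of 23 measured in that list. Of 21 retinoic acid pathway genes measured, in cultures given no retinoic acid, 5 rose in the EBs and 3 were called negative, Dhrs3, Stra6 and Meis2. The 5 rises were 0 without the first day 12 or either day 8 EB array and 2 without the second day 12 EB array. The 3 calls were 1 without the first day 12 or the second day 8 EB array, 5 without the third day 12 iHC array and 6 with the block.

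The microRNA genes whose sequences are printed above were picked after their values were seen. Mir99a was at 4.11 and 3.41 and then 6.83 and 6.08 in the EBs, and at 2.58 to 3.29 in the iHCs. Its host transcript Mir99ahg was at 4.64 and 4.00 and then 7.14 and 6.45 in the EBs, and at 2.75 to 3.08 in the iHCs. Mirlet7c-1, from the same host, was at 3.14 and 2.58 and then 4.53 and 4.22 in the EBs, and at 2.25 to 2.76 in the iHCs. For all 3 the day 12 EB arrays stood above every other array. Mirlet7c-1 was dim, with every group mean under log2 5, beside array medians of 4.67 to 4.82. The interaction was -2.62 ± 0.33 for Mir99a (adjusted p = 0.000501), -2.58 ± 0.29 for Mir99ahg (0.0002) and -1.42 ± 0.26 for Mirlet7c-1 (0.00912), the last lost without the first day 12 or the second day 8 EB array (up to 0.0651).

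Mir100, which shares the miR-99a seed, was at 3.61 and 3.37 and then 4.38 and 4.81 in the EBs and at 2.83 to 3.20 in the iHCs, with an interaction of -1.15 ± 0.21 (adjusted p = 0.00712; 0.0527 without the second day 8 EB array). Mir100 was dim too, with every group mean under log2 5. Its host Mir100hg had an interaction of -1.50 ± 0.28 (adjusted p = 0.0087). Of the miR-181 genes, Mir181b-1 had the largest interaction, -3.42 ± 0.47 (adjusted p = 0.00105), from 4.04 and 3.40 to 6.96 and 6.42 in the EBs. Mir181a-2 had an interaction of -1.39 ± 0.16 (adjusted p = 0.000285) and Mir181b-2 one of -1.67 ± 0.34 (0.0157). The call of Mir181b-2 was lost in 2 of 18 alternatives, among them without the second day 12 EB array. The neighbours Mir125b-2, Mir125b-1, Mirlet7a-2 and Mir181a-1 were not called, with interactions of -0.20, -0.14, -0.25 and -0.33, of which those of Mir125b-1 and Mirlet7a-2 changed sign when 1 EB array was left out. Lin28a and Lin28b, proteins that block the maturation of let-7, fell in the EBs by 1.25 and 1.14 (adjusted p = 0.014 and 0.00141), and their interactions of 0.71 and 0.77 were not called (0.362 and 0.092).

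**Figure D4:**
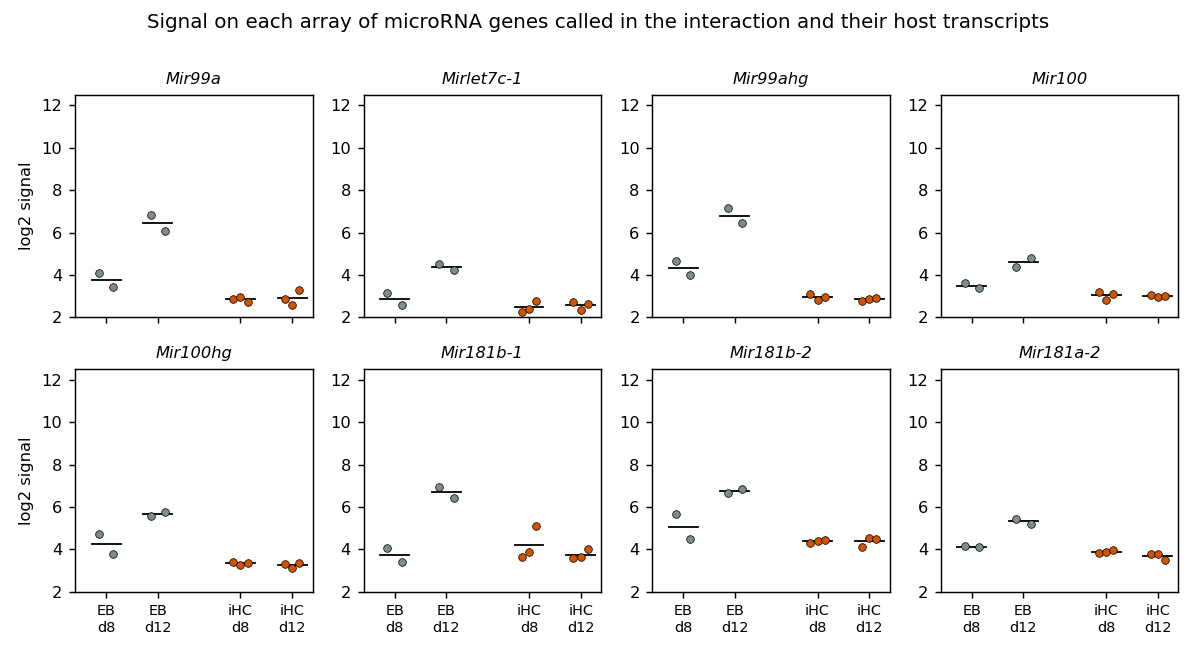
Log2 expression of 6 microRNA genes and 2 host transcripts on each array, with control EBs in grey and Dox iHCs in orange at day 8 and day 12; bars are group means. The EB arrays of day 12 stand above those of day 8 in every panel, as for Mir99a at 6.83 and 6.08 against 4.11 and 3.41.

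Several lists gave few or no calls in the interaction by limma, which called 1.03% of all genes positive and 1.81% negative. For the otic and supporting cell, neural progenitor, cartilage, surface epithelium, motile cilia, smooth and skeletal muscle, p53, hypoxia and Hox 1 to 5 lists the count was 0, with 3, 2, 3, 3, 3, 3, 4, 3 and 1 members at an unadjusted p under 0.05. With the block the otic, cartilage and muscle lists had 1 positive call each, the progenitor list 1 negative, the epithelium list 1 positive and 2 negative, the p53 list 1 of each and the hypoxia list 2 negative. Of the 22 imprinted genes measured, 5 fell in the iHCs, among them Grb10 (-1.77) and Mest (-1.24), and Cdkn1c alone was called in the interaction; the count of 1 was 0 without the first day 12 EB array, 4 without the third day 12 and 2 without the first day 8 iHC array. Of 23 Hox genes of paralogues 6 to 13, Hoxd8 and Hoxd9 were called positive and Hoxd11 negative. Every group mean of Hoxd9 was under log2 5. The 2 positive Hox calls were 0 without the second day 12 or the second day 8 EB array, the first day 12 or the second day 8 iHC array, and 1 without the first day 12 EB, the second day 12 iHC or the third day 8 iHC array. The negative one was 0 without the first day 12 or the second day 8 EB array, 3 without the second day 12 EB array and 2 without the first day 8 EB array. Of 24 pluripotency genes measured, 1 was called, Tfcp2l1 at 1.29 (adjusted p = 0.0146), or 2 with the block; the count was 0 without the first day 12 or the second day 8 EB array and 2 without either of the other EB arrays. Of 24 immediate early and dissociation stress genes, 1 was called, Ier3 at -1.46 (adjusted p = 0.0405), or 3 of each sign with the block. The 1 negative call was 2 without the third day 12 iHC array, and 0 negative calls were made without any 1 EB array, the second day 12 iHC array or any 1 day 8 iHC array. The mean level of that stress list was 7.31 to 7.77 and 7.29 to 7.61 in the EBs and 7.63 to 7.96 and 7.36 to 8.46 in the iHCs, so its spread was widest in the day 12 iHCs; the part of the sort in any result was not tested.

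The iHCs given Dox with retinoic acid offered a second time course, with 3 arrays a day. The time change in Dox iHCs differed from that in Dox with retinoic acid for 2 genes, 0.00902% of those tested, Mx2 and Cbln2, with 1276 genes at an unadjusted p under 0.05. Cbln2 was at 5.72, 5.94 and 6.15 and then 6.17, 6.33 and 6.32 with retinoic acid, below the Dox iHCs on both days, and the difference in its change was 1.32 ± 0.19 (limma, adjusted p = 0.0495). That call of Cbln2 was lost in 10 of 20 alternatives, with only the arrays of the contrast, with the trended prior and without the first or the second array of either group at day 12 or the second or the third array of either group at day 8 (up to 0.261). Mx2, an interferon-induced GTPase, was at 5.88, 5.92 and 6.15 and then 4.08, 4.15 and 4.32 with retinoic acid, and at 3.67 to 4.10 in the Dox iHCs. The difference in the change of Mx2 was 1.89 ± 0.17 (adjusted p = 0.000536) and kept its call in all 20. With the replicate block 15 genes were called, and without single arrays 1 to 15. Lhfpl5 was at 7.55, 7.48 and 6.72 with retinoic acid at day 8, a level that the Dox iHCs met at day 12, and the difference in its change was not called (1.28 ± 0.41, adjusted p = 0.661).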

How the data were processed

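All samples were hybridised to Mouse Gene 2.1 ST arrays (Affymetrix). The deposited values are log2 intensities made by the authors in Expression Console with RMA (background correction, quantile normalization and probe summary), per the submitters' processing notes; RMA compresses low signal and gives no detection call. Values ran from 1.44 to 12.3, array means from 5.03 to 5.09, and precision is limited by how few arrays there are. Of 33708 entries, 23521 had 1 symbol, 1814 several and 8373 none. Where a gene had several entries (1082 genes) the one with the highest mean was kept, which left 22180 genes; entries with several symbols or none were left out of the gene tests.

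Groups came from the sample labels. One limma model (version 3.58.1, R 4.3.3) with 6 group means was fitted to all 16 arrays, moderated by eBayes, with Benjamini-Hochberg adjustment over all genes and a threshold of 0.05. Fold changes are differences of log2 values. The interaction test was tested on simulated data of 22180 genes. Of 100 genes each, 70% of interactions of log2 1 and 99% of log2 2 were recovered, with 8 false calls among the unchanged genes. The simulated arrays varied independently of each other, so the pairing of real iHC arrays given next was not simulated. Replicate numbers paired the iHC arrays: deviations of same-numbered day 8 and day 12 arrays correlated at 0.441, 0.352 and 0.513. The array strip, scan and batch were not known here.

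The members and gene lists were chosen with earlier results of these data known. Genes named by rule were the induced factors and Myo7a, the 15 largest called interactions of each sign, and in each list the 4 strongest called members at most, or the 2 largest where none was called. Other named genes (such as Chrna10, Tmc1, Tmc2, Cdh23, Slc4a1, Mki67, Cdk1, Hes5, Gal, Mx2, the microRNA genes, Lin28a, Lin28b and the genes with larger iHC changes) were chosen after their values were seen. Alternatives were the replicate block, array weights, quantile normalization, dim genes left out, the mean of entries, only the arrays of the contrast, a trended and robust prior, a block within each arm, and each of the 10 arrays left out, which makes 18 for the interaction. A fit of all entries gave only a count.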

Additional observations from a re-analysis of the deposited data

Results flagged for a closer look

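The time change differed between Dox iHCs and control EBs, by a test of the difference itself, for 630 genes. Nefl and Plcxd3 changed significantly and by 2-fold or more in opposite directions on the 2 sides, with interactions of -3.27 and -2.66 on the log2 scale. Plcxd3, a phospholipase-like protein, was at 6.91 to 7.24 and then 5.89 to 6.04 in the iHCs, and at up to 4.64 and then 6.26 and 6.01 in the EBs, so the groups met at day 12. Between Dox iHCs and iHCs given Dox with retinoic acid the time change differed for Mx2, by 1.89, and for Cbln2, by 1.32, a call that was lost in 10 of 20 alternatives.

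Entries with several gene symbols or none were not used in the gene tests. Of 10187 such entries, 80 were called in the interaction (0.785%), 38 positive and 42 negative.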

How the results depend on the processing

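Of the 630 genes called in the interaction, 188 were called under each of the 18 alternatives that tested them (dim genes are not tested where these are left out), 59 positive and 129 negative. With all entries of the table fitted in place of genes, 643 entries were called. The interaction count was 1021 with array weights, 415 with only the arrays of the contrast, 1430 with the replicate block and 1461 with the block within iHCs and within EBs, an alternative chosen after seeing the data; without single arrays it ran from 266 to 1068. The iHC time count was 3023 with array weights, 420 with only the arrays of the contrast, 3139 with the replicate block and 3116 with the block within each arm, and 644 to 2598 without single arrays. The EB time count was 553, 1255 and 1322 with only the arrays of the contrast, the block and the block within each arm, and 317 to 951 without single arrays. The count for Dox against Dox with retinoic acid was 24 with array weights, 1 with only the arrays of the contrast or a trended prior, 15 with the block and 18 with the block within each arm, and 1 to 15 without single arrays. Without single arrays the interaction ran up to 0.168 for Gfi1 and 0.349 for Atoh1, and down to -0.299 for Mir125b-1 and -0.522 for Mirlet7a-2. The sign of Gfi1 reversed without the first day 8 EB array (-0.0835) and the first day 12 iHC array (-0.0431), of Atoh1 (-0.0117) and Mirlet7a-2 (0.0199) without the second day 8 EB array, and of Mir125b-1 without the first day 12 EB array (0.0106). Except where leaving out arrays or testing fewer of them removes data, the cause was not tested. With 2 EB arrays a day, leaving 1 out leaves a lone array that is assumed to vary like the other groups.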
